A study of Rattus norvegicus with 24 samples.

Results

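Fat stored in a myofiber lies in lipid droplets, and the genes described here encode the enzymes that empty these droplets and the proteins that coat them. The set was defined by name and holds 10 genes, of which 8 had a row among the 13458 gene symbols of the deposited table: the lipases Pnpla2 and Lipe, the lipase cofactor Abhd5, the lipase inhibitor G0s2, the perilipins Plin1, Plin2 and Plin5, and Cidec. Plin3 and Plin4 were not analysed here. RNA was measured in the tibialis anterior (TA), a dorsiflexor muscle of the lower leg, of 12 male Fischer 344 rats aged 23 ± 1 months. In 9 rats an implanted pump delivered tetrodotoxin (TTX), which stops nerve impulses, to the left common peroneal nerve, so that the left TA could not be activated. The atrophy group (n = 3) was sampled after 6 to 7 days of TTX, the recovery group (n = 3) after 9 further days without it, and the repeated atrophy group (n = 3) after a second infusion of 5 to 6 days. The untreated right TA of these 9 rats formed the control group. The 3 sham rats, 1 for each time point, had the surgery with saline in the pump, and both of their limbs were sequenced, giving 24 samples. The control is thus the opposite limb of a treated animal, and each treated group rests on 3 animals of 1 sex and strain.

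As background, triglyceride in a droplet is cut stepwise. Adipose triglyceride lipase, the product of Pnpla2, removes the first fatty acid, is activated by the Abhd5 protein (CGI-58) and is inhibited by the G0s2 protein, and hormone-sensitive lipase, encoded by Lipe, acts mainly on the diglyceride that remains. Plin2 is the perilipin that coats droplets in most tissues and is protected from degradation when it is bound to them, Plin5 is the perilipin of oxidative tissues such as muscle and heart, and Plin1 and Cidec are typical of white adipocytes, where Cidec helps droplets to grow by fusion. In resting muscle these droplets supply fatty acids to mitochondria.

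The largest differences in the set were at its inhibitor and at its main droplet coat. After repeated atrophy G0s2 fell 17.9-fold and Plin2 rose 9.11-fold against control. Plin2 was also 4.15-fold higher after the first atrophy, whereas the 8 measured genes included none that passed the test after recovery. Pnpla2, Abhd5, Lipe, Plin1, Plin5 and Cidec did not pass in any of the 3 comparisons with control. In a fit with a term for each animal, Plin2 after the first atrophy no longer passed (limma adjusted p = 0.151). Lipe passed there as lower after repeated atrophy (limma adjusted p = 0.0234). Levels are in CPM, which scale each library to a total of 1000000, fold changes are on the scale of log2(CPM + 1), and passing meant a limma p of 0.05 or less after Benjamini-Hochberg adjustment over the 14031 rows tested, together with a 1.2-fold difference or more.

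The sequences upstream of the 2 genes that carry these results are shown here because G0s2 and Plin2 moved in opposite directions in the same muscles. They are the 250 bases before the annotated start, from RefSeq on the GRCr8 build, read 5′ to 3′ on the minus strand. The G0s2 window is chr13:107335949-107336198. The Plin2 window is chr5:106229019-106229268, before the first of 2 starts listed, and the window before the other start held none of the motifs below.
G0s2: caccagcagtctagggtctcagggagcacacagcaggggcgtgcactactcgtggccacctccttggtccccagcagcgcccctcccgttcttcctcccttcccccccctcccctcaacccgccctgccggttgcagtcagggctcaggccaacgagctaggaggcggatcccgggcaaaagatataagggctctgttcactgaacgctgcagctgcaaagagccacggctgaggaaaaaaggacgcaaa
Plin2: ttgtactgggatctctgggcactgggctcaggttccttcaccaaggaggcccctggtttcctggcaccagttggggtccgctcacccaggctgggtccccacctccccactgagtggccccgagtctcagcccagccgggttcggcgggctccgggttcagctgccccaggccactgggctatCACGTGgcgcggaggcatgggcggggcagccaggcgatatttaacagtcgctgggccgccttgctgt
Capitals mark matches to 4 short motifs searched on both strands, none of which overlapped another here: the E-box CACGTG, the nuclear receptor half-site AGGTCA, the forkhead motif GTAAACA and the TATA motif TATAAA. The half-site was found in the windows of Abhd5 and Plin5. The G0s2 window held none of these letters. The Plin2 window held 1 E-box, which was also present in 5.59% of the 33469 upstream windows of this length. AGGTCA was present in 14.1% of all windows, GTAAACA in 3.21% and TATAAA in 12.9%. RefSeq windows were matched for 7 of the 8 genes, and the remaining gene is Lipe. In the deposited table, which uses the rn7 build, the G0s2 row spans chr13:104806351-104807264 and the Plin2 row chr5:101169235-101183037. The rows of Pnpla2 (chr1:196552723-196557806), Lipe (chr1:80965627-80984311), Abhd5 (chr8:122000369-122024554), Plin5 (chr9:939747-946121), Plin1 (chr1:133664892-133676829) and Cidec (chr4:146569288-146582174) overlap no gene of another symbol in the table.

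The tissue carried the marks of muscle. The 7 skeletal muscle markers Acta1, Ckm, Mb, Tnnt3, Tnni2, Myh4 and Pvalb together reached 63889 to 175603 CPM in the 18 limbs of the TTX rats. Their sum was 110833 to 175603 CPM in control and 63889 to 119902 CPM after atrophy, and 92982 to 112104 CPM after repeated atrophy, where Mb, the myoglobin gene, was the 1 of the 7 that passed, as higher (log2 fold change 1.01, limma adjusted p = 0.0124, and 0.191 when rescaled). Of all rows, 28.1% were called higher after repeated atrophy. Defining adipocyte genes were low. Adipoq, Cfd and Lep together reached 5.06 to 25.8 CPM in control, 10.1 to 20.3 in atrophy limbs, 19.2 to 29.96 in recovery limbs and 6.87 to 15.6 in limbs of repeated atrophy, and Lep was listed at 0 in 1 of the 9 control limbs. The size of the steps among low values showed that 1 read corresponds to 0.0324 to 0.0530 CPM, depending on the depth of the library. In bulk muscle, fewer cells of a type and less RNA per cell cannot be told apart. The scale of the table also matters, because the median of all rows lay 0.22 (log2) above control after atrophy and 0.20 above it after repeated atrophy. Rescaling the samples by a trimmed mean of log ratios brought these medians to -0.0012 and -0.0091. Changes are therefore also read against these shifts.

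Levels in control muscle differed widely between the genes. Per kilobase of the transcript length that the table gives, Pnpla2 stood highest at 156 ± 139 CPM (SD, n = 9), followed by G0s2 at 85.1 ± 53.9 and Plin2 at 33.9 ± 10.6. The means of Pnpla2 and G0s2 differed by less than their spread. Lipe (7.31 ± 3.41), Abhd5 (7.21 ± 1.93) and Plin5 (6.75 ± 1.94) were close together and not separated beyond their spread. Plin1 (0.425 ± 0.264) and Cidec (0.127 ± 0.0853) were the lowest. Before division by length their control medians were 0.899 and 0.264 CPM, where 3 reads correspond to 0.0971 to 0.159 CPM.

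**Figure D1:**
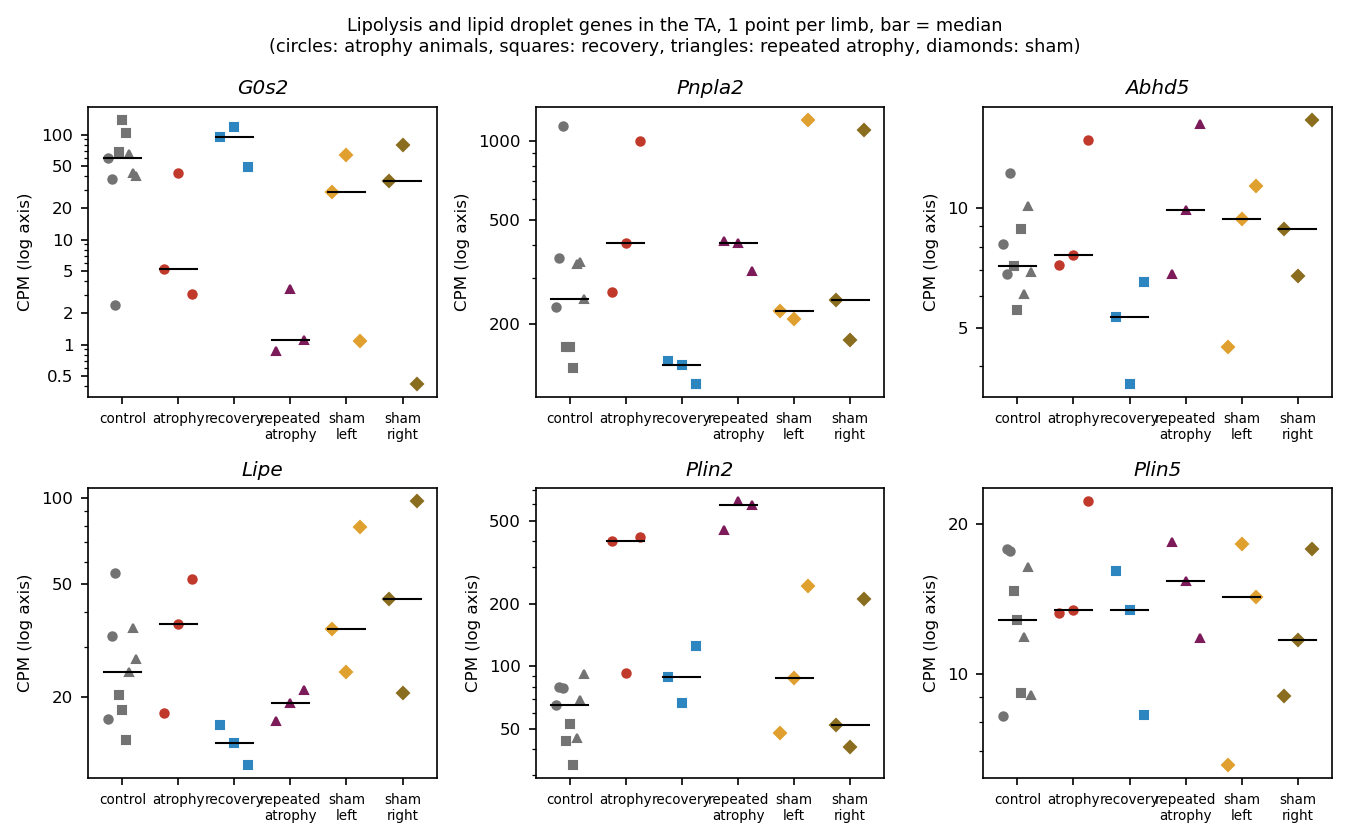
CPM of 6 genes in each of the 24 limbs on log axes, with 1 point per limb, a bar at the group median and the marker shape giving the arm of the animal. The 3 repeated atrophy limbs lie between 0.879 and 3.40 CPM for G0s2 and between 448 and 619 CPM for Plin2, while Plin5 overlaps in all groups.

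G0s2, the inhibitor, was the gene with the deepest fall. In the 9 control limbs its level ran from 2.41 to 137 CPM with a median of 60.4. It was 0.879, 3.40 and 1.11 CPM in the 3 repeated atrophy limbs, against 65.5, 43.0 and 40.0 CPM in the right limbs of the same animals. Thus 2 of the 3 repeated atrophy limbs lay below every control limb, and the third exceeded only the right limb of atrophy animal 3. The log2 fold change was -4.16 ± 0.82 (SE; limma adjusted p = 0.00106), and within the animal the 3 differences were all negative (mean -4.25 ± 0.91, SD, n = 3). After the first atrophy the values were 5.30, 43.1 and 3.06 CPM, beside 60.4, 38.2 and 2.41 CPM in the right limbs. G0s2 was therefore low in both limbs of atrophy animal 3 and close to its right limb in atrophy animal 2. The log2 fold change of -2.15 ± 0.82 did not pass (adjusted p = 0.0652). It passed without atrophy animal 2 (-3.23, adjusted p = 0.0118) and without atrophy animal 3 (-1.94, adjusted p = 0.0409), while within the animals it was -0.95 (adjusted p = 0.398), with the left limb lower in 1 of 3. After recovery G0s2 was 95.5, 119 and 49.0 CPM, within the control range (log2 fold change 0.85 ± 0.82, adjusted p = 0.557).

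Pnpla2, the lipase that G0s2 inhibits, varied more between animals than between limbs. Control limbs ran from 135 to 1145 CPM with a median of 248. The atrophy limbs held 263, 408 and 998 CPM, the recovery limbs 144, 139 and 117, and the repeated atrophy limbs 414, 406 and 319. None of the 3 comparisons with control passed (log2 fold changes 0.77 ± 0.47, -1.06 ± 0.47 and 0.44 ± 0.47, with adjusted p = 0.248, 0.171 and 0.521). The right limbs of the recovery animals were themselves low, at 163, 162 and 135 CPM, below the other 6 control limbs. Within the animal, the atrophy limb differed from its right limb by 0.06 ± 0.22 (log2, SD, n = 3), against 0.77 from pooled control. The recovery limb differed from its right limb by -0.20 ± 0.02 (log2, SD, n = 3), lower in 3 of 3, and the repeated atrophy limb by 0.30 ± 0.07, higher in 3 of 3. Neither difference passed in the blocked fit, which has a term for each animal (adjusted p = 0.452 and 0.134), and over all rows the blocked median after repeated atrophy was itself 0.20.

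Abhd5, the cofactor, was measured at low levels throughout. It ranged from 5.53 to 12.3 CPM in control (median 7.15). The atrophy limbs held 7.17, 7.61 and 14.9 CPM, the recovery limbs 5.31, 3.60 and 6.52, and the repeated atrophy limbs 6.82, 9.89 and 16.3. The groups overlapped with control, and the log2 fold changes of 0.24 ± 0.27, -0.54 ± 0.27 and 0.38 ± 0.27 did not pass (adjusted p = 0.566, 0.217 and 0.312). Within the animal the recovery limb was lower in 3 of 3, by -0.42 ± 0.07 (log2, SD).

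Lipe, the second lipase of the series, lay between 14.1 and 54.8 CPM in control (median 24.5). Atrophy limbs held 17.5, 36.1 and 52.1 CPM and recovery limbs 15.9, 13.8 and 11.5 CPM. In the repeated atrophy limbs Lipe was 16.5, 19.01 and 21.2 CPM. The log2 fold changes of 0.35 ± 0.33, -0.83 ± 0.33 and -0.39 ± 0.33 did not pass against pooled control (adjusted p = 0.478, 0.127 and 0.407). With the animal as a block, Lipe passed after repeated atrophy as lower (-0.58 ± 0.16, adjusted p = 0.0234), with a smaller SE than against pooled control. Its 3 right limbs held 24.5, 35.0 and 27.3 CPM. In recovery Lipe was lower than on the right in 3 of 3 animals, by -0.32 ± 0.05 (log2, SD), less than against pooled control, since the right limbs of these animals held 20.4, 18.02 and 14.1 CPM.

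**Figure D2:**
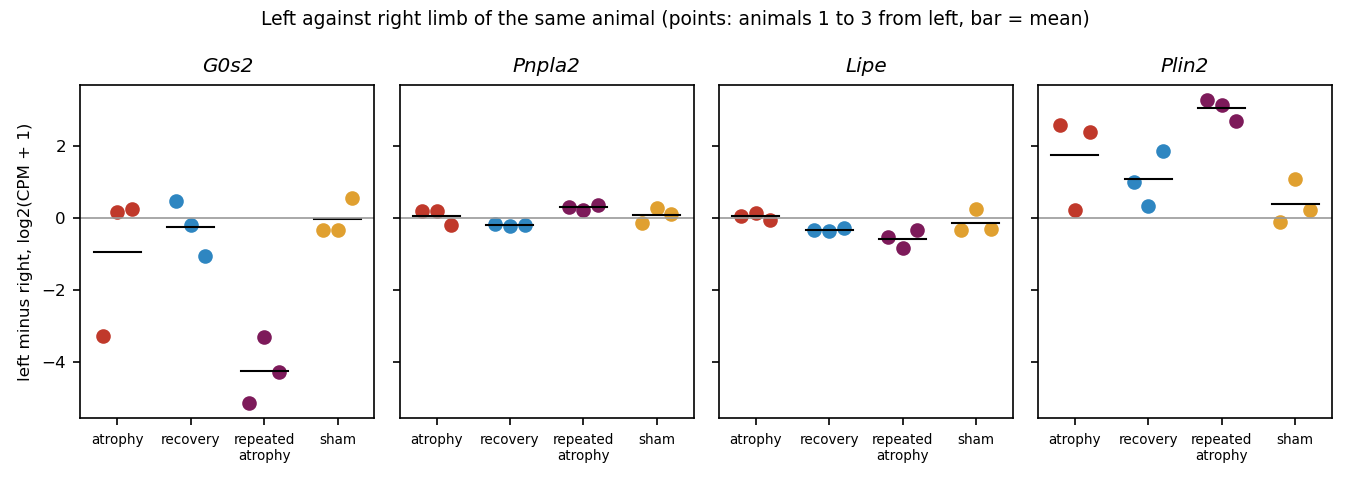
Left minus right limb of the same animal in log2(CPM + 1) for 4 genes, with 1 point for each of 3 animals per arm and a bar at the mean. G0s2 is lower and Plin2 higher in all 3 repeated atrophy animals, with means of -4.25 and 3.04, while the Plin2 points of the atrophy arm spread from 0.22 to 2.59.

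Plin2, the droplet coat, was the gene of the set with the clearest rise. Its control values were 33.6 to 91.6 CPM (median 65.2). The 3 repeated atrophy limbs held 448, 619 and 597 CPM, beside 45.1, 69.0 and 91.6 CPM on the right, and none came near the control range. The log2 fold change was 3.19 ± 0.37 (adjusted p = 3.66e-05), and 3.04 ± 0.41 in the blocked fit (adjusted p = 0.00323). The atrophy limbs held 399, 92.9 and 417 CPM, so that 2 were far above control and atrophy animal 2 was just above the highest control limb. This log2 fold change was 2.05 ± 0.37 (adjusted p = 0.00526). With the animal as a block it was 1.73 ± 0.41 and no longer passed (adjusted p = 0.151), although all 3 differences were positive. That fit called 0 of the 14031 rows (2678 at an unadjusted p under 0.05). Without atrophy animal 1 the pooled log2 fold change was 1.73 (adjusted p = 0.130), and without atrophy animal 2 it was 2.81 (adjusted p = 2.67e-05). In recovery Plin2 was 89.1, 66.9 and 126 CPM, beside 43.8, 53.1 and 33.6 CPM on the right. It was higher on the left in 3 of 3 animals by 1.07 ± 0.77 (log2, SD), but it passed neither against pooled control (0.60 ± 0.37, adjusted p = 0.323) nor in the blocked fit (adjusted p = 0.232).

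Plin5, the perilipin of oxidative tissue, did not follow Plin2. It ran from 8.24 to 17.8 CPM in control, against 13.3, 13.4 and 22.3 CPM in atrophy limbs, 16.1, 13.5 and 8.27 in recovery limbs, and 18.5, 15.4 and 11.8 in repeated atrophy limbs. Its log2 fold change after repeated atrophy was 0.23, with a 95% interval of -0.31 to 0.77, and rescaling turned the sign (-0.13). The ratio of Plin2 to Plin5 was 2.98 to 10.1 in control and 24.3 to 50.6 after repeated atrophy, and these ranges did not overlap. In atrophy limbs it was 6.91 to 29.99, which overlapped with both, in recovery limbs 4.97 to 15.2, and in sham limbs 4.80 to 17.01 on the left and 3.49 to 11.8 on the right. Plin1 was at most 1.62 CPM in control and 0.238 to 1.31 CPM in the 9 treated limbs. Cidec has 3 overlapping rows in the table, among which reads were split, so its level is uncertain. Its highest row was 0 to 0.372 CPM in control and 0 to 0.690 CPM in the treated limbs, and with the rows summed it was 0 to 1.42 and 0 to 1.15 CPM. At these levels, close to the 0.0971 to 0.159 CPM of 3 reads, no difference from control in the highest row passed in the treated limbs. With the rows summed Cidec was -0.48 ± 0.23 after atrophy (limma adjusted p = 0.136).

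**Figure D3:**
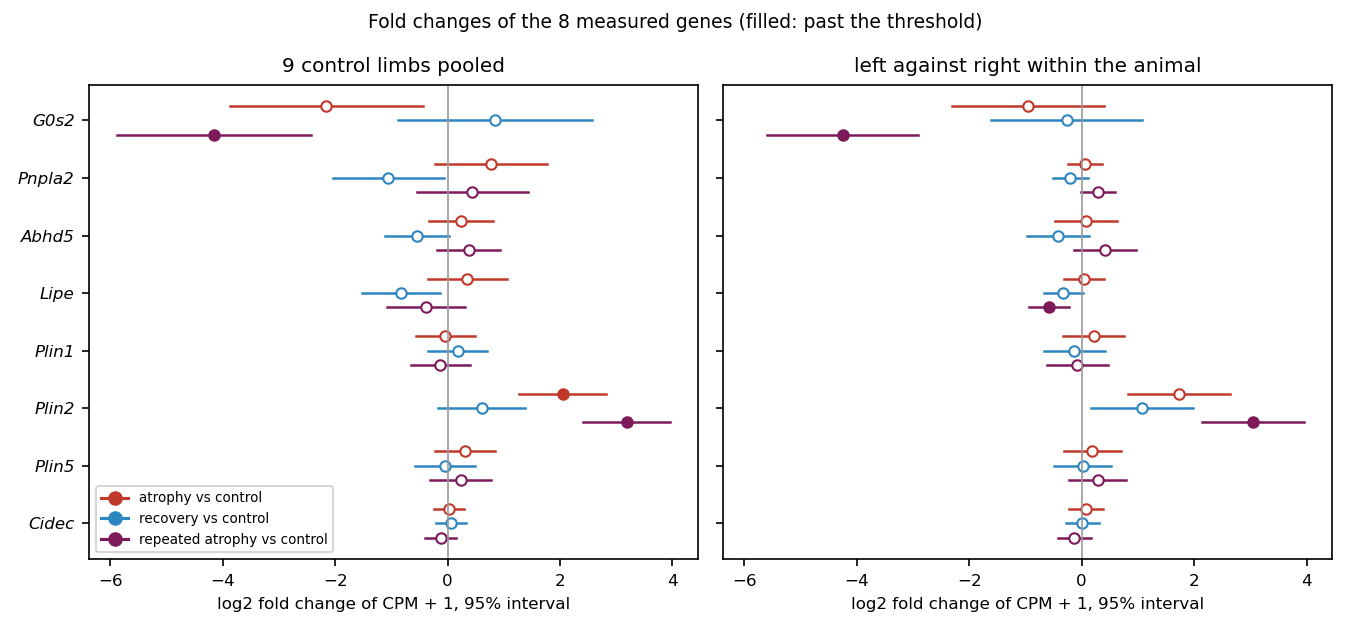
Log2 fold changes with 95% intervals of the 8 measured genes against the pooled control limbs (left) and within the animal (right), filled where the gene passed. Plin2 after repeated atrophy (3.19 and 3.04) and G0s2 after repeated atrophy (-4.16 and -4.25) are filled in both panels, whereas Plin2 after atrophy is filled on the left and Lipe after repeated atrophy on the right.

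The counts of genes that passed stand beside a broad response of the table. After atrophy 1 of 8 members was higher and 0 lower, where 20.3% of all rows tested were called higher and 2.33% lower. These shares rested on few animals, since 3171 rows were called in all, 1 without atrophy animal 1 and 0 in the blocked fit. After repeated atrophy 1 of 8 was higher and 1 lower, beside 28.1% and 6.24% of all rows. After recovery the limma count was 0 of 8 (2 at an unadjusted p under 0.05, Pnpla2 and Lipe), beside 4.4% of rows higher and 3.33% lower. Rescaled by the trimmed mean of log ratios, the shares of rows were 4.53% higher and 5.15% lower after atrophy, and 13.1% and 12.1% after repeated atrophy. On that scale Plin2 remained past the threshold in both comparisons and G0s2 after repeated atrophy. Over the 8 members the median log2 fold changes of the atrophy, recovery and repeated atrophy limbs were 0.27, 0.0064 and 0.05, beside 0.22, 0.02 and 0.20 over all rows.

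The direct comparisons between treated groups ask whether the set moved when TTX ended and when it returned. From atrophy to recovery G0s2 rose by 3.00 ± 1.01 (log2, SE; limma adjusted p = 0.0462), Pnpla2 fell by 1.83 ± 0.58 (adjusted p = 0.0364) and Plin2 fell by 1.45 ± 0.45 (adjusted p = 0.0344). Lipe, at -1.18 ± 0.41, lay just outside the threshold (adjusted p = 0.0512), and passed with a pseudocount of 0.1 (0.0461), a mean of at least 10 CPM (0.0279) or rows summed per symbol (0.0464). These were 1 of 8 members higher and 2 lower, beside 3.34% and 14.5% of all rows. From recovery to repeated atrophy G0s2 fell by 5.01 ± 1.01 (adjusted p = 0.00273), Plin2 rose by 2.58 ± 0.45 (adjusted p = 0.00147) and Abhd5 rose by 0.92 ± 0.33 (adjusted p = 0.0453). This made 2 of 8 higher and 1 lower, beside 21% and 6.29% of all rows. These groups came from different animals. With the animal as a block, which compares the left-right differences of the groups, no member passed in limma (lowest adjusted p 0.698, for Lipe, from atrophy to recovery and 0.0916, for G0s2, from recovery to repeated atrophy), and of all rows 2 and 12 passed. On the rescaled table the 3 calls from atrophy to recovery and that of Abhd5 were lost (log2 fold changes 3.30, -1.47, -1.09 and 0.60 for G0s2, Pnpla2, Plin2 and Abhd5, with adjusted p of 0.0564, 0.0848, 0.0645 and 0.158), with 5.68% of rows higher and 4.87% lower from atrophy to recovery and 10.3% and 11.3% from recovery to repeated atrophy. Single animals also decided these calls. G0s2 from atrophy to recovery did not pass without atrophy animal 1 (adjusted p = 0.153) or without any 1 recovery animal (0.137, 0.142 and 0.0517) or repeated atrophy animal (0.0577, 0.0655 and 0.0610). Pnpla2 did not pass without any 1 recovery animal (0.0946, 0.101 and 0.0692) or repeated atrophy animal 2 (0.0557), and Plin2 did not pass without atrophy animal 1 or 3 (0.160 for both), recovery animal 1 or 2 (0.106 and 0.153) or repeated atrophy animal 2 (0.0528). Abhd5 from recovery to repeated atrophy did not pass without atrophy animal 1 (0.0543), recovery animal 1 or 2 (0.106 and 0.181) or repeated atrophy animal 2 or 3 (0.0952 and 0.218). Lipe from atrophy to recovery passed without atrophy animal 1 (-1.60, adjusted p = 0.0346).

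Repeated and first atrophy were also compared directly. G0s2 was lower after the second infusion by -2.01 ± 1.01 (log2, SE) and Plin2 higher by 1.14 ± 0.45, and neither passed (limma adjusted p = 0.829 and 0.661). The count was 0 of 8 members (1, Plin2, at an unadjusted p under 0.05), beside 0.0143% of all rows higher and 0.0214% lower. The 95% interval for Plin2 was 0.19 to 2.08 and that for G0s2 was -4.12 to 0.11. Equal levels after the 2 infusions were therefore not shown for either gene. Without atrophy animal 2 the differences were -0.96 for G0s2 and 0.43 for Plin2, and in the blocked fit that of G0s2 was -3.30 (adjusted p = 0.774).

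The level of the lipase relative to its inhibitor summarizes the pair. The ratio of Pnpla2 to G0s2 CPM was 1.18 to 9.33 in 8 of the 9 control limbs and 476 in the right limb of atrophy animal 3. Atrophy limbs had ratios of 49.6, 9.47 and 326, recovery limbs 1.51, 1.17 and 2.39, and repeated atrophy limbs 471, 119 and 288. In repeated atrophy the 3 left limbs stood far above their own right limbs, which had ratios of 5.14, 8.01 and 6.19. The right limbs of the recovery animals had ratios of 2.39, 1.18 and 1.30, which overlapped with the left. In sham animals 1, 2 and 3 the ratios were 7.82, 3.28 and 1114.5 on the left and 6.80, 2.17 and 2623 on the right. The highest ratios of all limbs thus came from sham animal 3, which received no TTX.

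**Figure D4:**
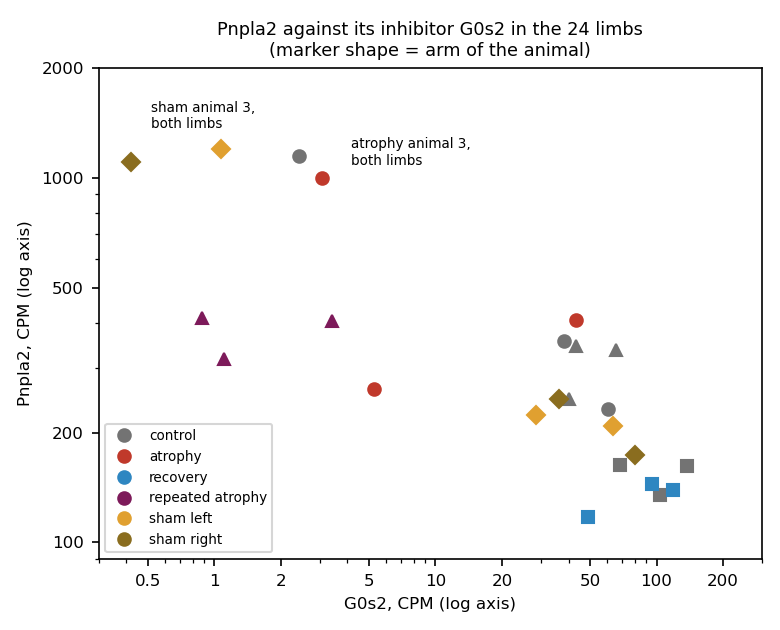
Pnpla2 against G0s2 in the 24 limbs, both in CPM on log axes, colored by group and shaped by arm. The 3 repeated atrophy limbs lie at low G0s2 with Pnpla2 of 319 to 414 CPM, whereas both limbs of atrophy animal 3 and sham animal 3 lie at low G0s2 with Pnpla2 of 998 to 1201 CPM.

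A pair of animals stood apart in both limbs, a pattern seen after their values were examined. In atrophy animal 3, G0s2 was 2.41 CPM on the right and Pnpla2 1145 CPM, with Plin2 at 78.8 CPM on the right and 417 on the left. In sham animal 3, which received no TTX, G0s2 was 1.08 CPM on the left and 0.421 on the right, Pnpla2 was 1201 and 1104 CPM, Lipe 79.2 and 97.8 CPM, and Plin2 244 and 210 CPM. Low G0s2 with high Pnpla2 and Lipe was seen here without TTX. In the repeated atrophy limbs, low G0s2 stood beside Pnpla2 of at most 414 CPM and Lipe of at most 21.2 CPM.

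Across the right limbs, which received no TTX, the same genes were compared animal by animal. Because these 2 animals form a cluster of their own, the relation was computed over the right limbs of the other 10 animals. G0s2 was negatively related to Lipe (Pearson r = -0.833, permutation p = 0.00377, adjusted 0.106; Spearman rho = -0.806, permutation p = 0.0074, adjusted 0.0762) and to Pnpla2 (r = -0.750, permutation p = 0.0150, adjusted 0.143; rho = -0.782, permutation p = 0.0109, adjusted 0.0762). Pnpla2 and Lipe were positively related (r = 0.725, permutation p = 0.0204, adjusted 0.143; rho = 0.782, permutation p = 0.0104, adjusted 0.0762). Tests were two-sided, and after adjustment over 28 pairs none of these relations passed. With the limbs of the 2 animals included all 3 passed (permutation, adjusted Pearson p = 0.00187 for G0s2 and Pnpla2, 0.00056 for G0s2 and Lipe and 0.00187 for Pnpla2 and Lipe). By rank all 3 passed there too (permutation, adjusted Spearman p = 0.0056 for each). Those calls therefore depended on including the 2 limbs, and leaving them out also left fewer limbs to test. Among the 28 pairs Plin1 and Cidec, the 2 members with the lowest levels, passed by rank only (r = 0.645, permutation p = 0.0547, adjusted 0.219; rho = 0.891, permutation p = 0.00098, adjusted 0.0274). Without the 2 limbs farthest from the median of the first gene, r was -0.866, -0.797 and 0.577. The right limbs also differed by time point. G0s2 was 68.2, 137 and 103 CPM in those of the recovery animals, above the 40.0 to 65.5 CPM of the repeated atrophy animals. Centred within the 4 arms, a step added after seeing the data, r was -0.789 for G0s2 and Lipe, -0.433 for G0s2 and Pnpla2 and 0.839 for Pnpla2 and Lipe (exact permutation within arms, p = 0.0972, 0.396 and 0.0903, adjusted 0.389, 0.709 and 0.389). The 144 arrangements within arms allow no p below 0.00694, so the adjusted values can say little about these relations.

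Sham surgery was compared with the same control limbs. Left sham limbs held G0s2 at 28.6, 63.6 and 1.08 CPM and Plin2 at 47.7, 87.6 and 244 CPM. By limma, 0 of 8 members passed (1, Cidec, at an unadjusted p under 0.05), beside 0% of the 13822 rows tested in either direction, with 1904 rows at an unadjusted p under 0.05. Cidec had a log2 fold change of 0.64 ± 0.18 (adjusted p = 0.251), with values of 1.48, 1.25 and 0.176 CPM on the left. The 10 adipocyte markers summed to 271, 140 and 343 CPM in these limbs, against 95.3 to 194 CPM in control, and Adipoq, Cfd and Lep to 37.0, 28.4 and 13.9 CPM, against 5.06 to 25.8 CPM. Their part in the Cidec value was not tested. Without sham animal 3 the fold change of Cidec was 0.97 and passed (adjusted p = 0.0460), as did 8 of all 13755 rows, while between the limbs of the sham animals it was -0.0035. With the rows of Cidec summed the sham fold change was 0.26 ± 0.26 (adjusted p = 0.618), and in sham animal 1 nearly all Cidec reads were in the 1 row tested.

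Around the set, the other genes of the pathway were described by lists. Of 7 other lipolytic hydrolases (Mgll, Lipa, Ces1d, Ddhd2, Abhd6, Pnpla3 and Lpl), 0 passed in limma in any of the 3 comparisons with control (1, 0 and 2 at an unadjusted p under 0.05), beside 20.3%, 4.4% and 28.1% of all rows higher and 2.33%, 3.33% and 6.24% lower. Monoglyceride lipase Mgll, which takes off the last fatty acid, was -0.76 ± 0.31 after repeated atrophy (adjusted p = 0.0619). Rescaled, Mgll and Lipa passed as lower after repeated atrophy (-1.12 and -0.51), beside 12.1% of all rows.

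Triglyceride synthesis genes were split. Of 13 listed genes, 4 were higher and 3 lower after repeated atrophy, beside the 28.1% and 6.24% of all rows given above. Rescaled, 2 were higher and 4 lower, beside 13.1% and 12.1% of all rows. After atrophy 1 was higher, beside 20.3% of all rows (rescaled 0 higher and 2 lower, beside 4.53% and 5.15%). After recovery 1 was lower, beside 3.33% of all rows (rescaled 2, beside 5.92%). The lipins, which make the diglyceride precursor, went in opposite directions: after repeated atrophy Lpin1 fell by 1.27 ± 0.26 (log2, SE; adjusted p = 0.00143), while Lpin2 rose by 1.13 ± 0.24 (adjusted p = 0.00187) and Lpin3 rose by 1.52 ± 0.30 (adjusted p = 0.00109). These 3 also passed when rescaled. The acyltransferase genes Gpat3 (-1.13) and Agpat2 (-0.87) were lower, and Gpat4 (0.77) and Agpat3 (0.74) were higher, the latter pair not passing when rescaled (adjusted p = 0.0582 and 0.0901). Gpat4 was the gene higher after atrophy (0.74 ± 0.20, adjusted p = 0.0173), a call lost when rescaled (adjusted p = 0.113). Agpat1 was the gene lower after recovery (-0.52, adjusted p = 0.0433). Within animals 8 synthesis genes passed after repeated atrophy, the same 7 and Dgat2, which makes the final triglyceride (-0.52, adjusted p = 0.0234), and neither Gpat4 after atrophy (0.232) nor Agpat1 after recovery (0.146) did. In the blocked fit 21.5% of all rows were higher and 5.66% lower after repeated atrophy.

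Among 13 measured genes of droplet assembly and coating, 4 were higher after atrophy (Cidea, Acsl3, Rab18 and Faf2), and 3 were higher and 2 lower after repeated atrophy, beside 20.3% of all rows higher after atrophy and 28.1% higher and 6.24% lower after repeated atrophy. Cidea, a relative of Cidec that promotes droplet growth, was 0.980 to 12.2 CPM in control (median 2.60), 3.84 to 47.2 after atrophy and 31.6 to 52.9 after repeated atrophy. Its log2 fold change was 2.39 ± 0.55 after atrophy (adjusted p = 0.00926) and 3.51 ± 0.55 after repeated atrophy (adjusted p = 0.000222). Acsl3, the droplet acyl-CoA synthetase, was 31.2 to 112 CPM in control and 130 to 245 CPM after repeated atrophy (2.00 ± 0.32, adjusted p = 0.000242), and was also higher after atrophy (1.42 ± 0.32, adjusted p = 0.00877). Fitm1 and Fitm2, which help droplets bud from the endoplasmic reticulum, fell by 0.67 and 0.68 after repeated atrophy (adjusted p = 0.00221 and 0.0073). Rab18 (0.47 after either infusion) and Faf2 did not pass when rescaled. After recovery Hsd17b13 was higher (0.58) and Fitm1 (-0.53) and Aup1 (-1.18) were lower, beside 4.4% and 3.33% of all rows. Fitm1 did not pass when rescaled (adjusted p = 0.0501). Rescaled, 2 genes of the list were higher and 2 lower after recovery, beside 6.14% and 5.92% of all rows. In the blocked fit none of these calls after atrophy or recovery held (adjusted p of 0.151 for Cidea and 0.221 for Acsl3 after atrophy), where 0 of all 14031 rows passed after atrophy and 9 after recovery, and Fitm2 after repeated atrophy did not (0.0829), while Cidea (adjusted p = 0.00228) and Acsl3 (0.00377) held after repeated atrophy.

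**Figure D5:**
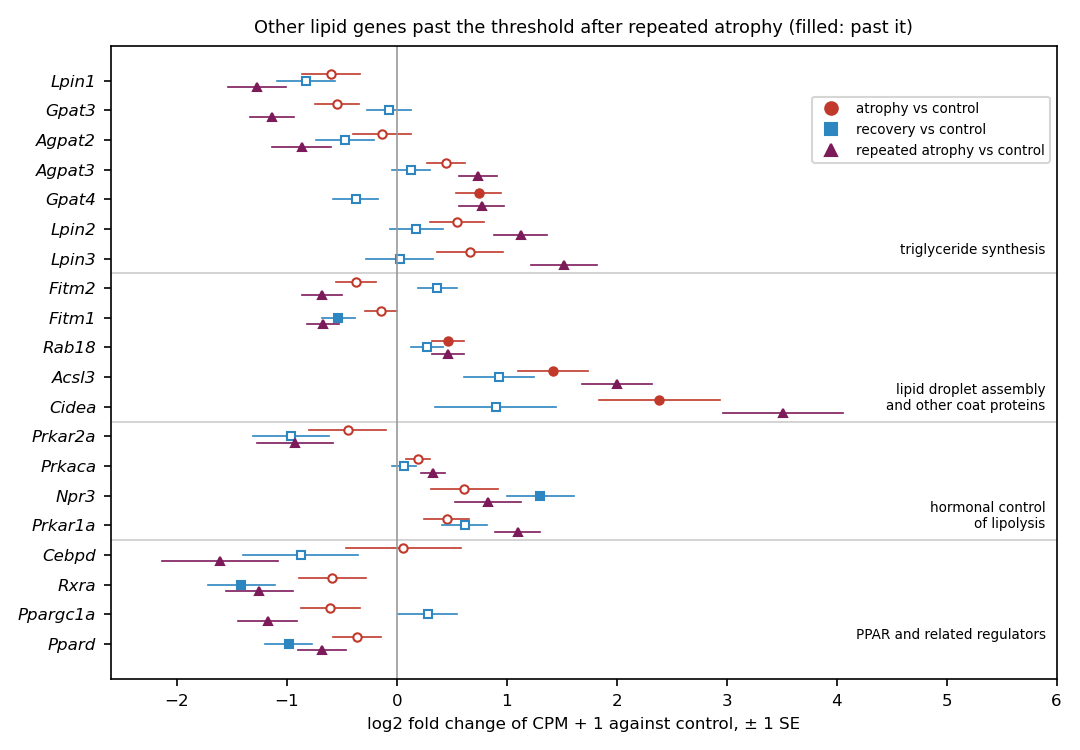
Log2 fold changes of CPM + 1 against control (point and 1 SE) for the other lipid genes past the threshold after repeated atrophy, filled where a comparison passed and grouped by list. Cidea (3.51) and Acsl3 (2.00) lie farthest to the right, and the 4 regulators Cebpd, Rxra, Ppargc1a and Ppard all lie left of 0 after repeated atrophy.

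Against control, the regulators of lipid genes that passed were lower. Of 9 nuclear receptors and partners, 4 fell after repeated atrophy and 3 after recovery, with 0 higher in either and 0 passing in limma after atrophy (2 at an unadjusted p under 0.05), beside 6.24% and 3.33% of all rows lower. From recovery to repeated atrophy 2 were higher and 1 lower, beside 21% and 6.29% of all rows. Rxra, the partner of the PPAR receptors, fell by 1.25 ± 0.31 after repeated atrophy (log2, SE; adjusted p = 0.00439) and by 1.41 ± 0.31 after recovery (adjusted p = 0.0117). Ppard, a PPAR receptor of muscle, fell by 0.68 and 0.98 (adjusted p = 0.0208 and 0.0128). The coactivator gene Ppargc1a (-1.17) and Cebpd (-1.61) were lower after repeated atrophy, and Nr1h3, the liver X receptor alpha gene, was lower after recovery (-1.15). Of 14 genes of hormonal control, which covers beta-adrenergic receptors, protein kinase A subunits and natriuretic peptide receptors, 3 were higher after repeated atrophy (Prkar1a 1.10, Npr3 0.83 and Prkaca 0.33) and Prkar2a was lower (-0.92). Of all rows 28.1% were higher and 6.24% lower. When rescaled the split was 1 higher and 4 lower, beside 13.1% and 12.1% of all rows. After recovery Npr3 (1.31) and Prkar2b (0.61) were higher, beside 4.4% of all rows. In the blocked fit none of the calls of these lists after recovery held (adjusted p of 0.141 for Rxra and 0.161 for Npr3), where 9 rows of the whole table passed, nor did Ppargc1a after repeated atrophy (0.0676).

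Markers of some other cells moved with the groups, and their part in the results was not tested. The sum of 10 macrophage markers was 92.2 to 353 CPM in control, 428 to 852 after atrophy and 969 to 1203 after repeated atrophy, of which Gpnmb alone made up 6.01 to 254, 337 to 654 and 790 to 1039 CPM. It was the 1 of the 10 that passed after repeated atrophy, as higher, beside 28.1% of all rows. Without Gpnmb the sum was 60.9 to 207 CPM in control and 90.6 to 348 in atrophy limbs. It was 198 to 455 in recovery limbs and 70.2 to 180 in repeated atrophy limbs. After recovery 3 of the 10 genes passed as higher, beside 4.4% of all rows. Fibroblast markers summed to 203 to 548 CPM in control and 1043 to 1953 CPM after recovery, where 5 of 7 passed as higher, beside the same 4.4%. In the blocked fit 0 of these macrophage and fibroblast markers passed after recovery, where 9 rows of the whole table passed. The sum of the 10 measured adipocyte markers was 95.3 to 194 CPM in control and 104 to 170 CPM after repeated atrophy. Of 5 endothelial and 4 Schwann markers, 0 passed in limma after atrophy, recovery or repeated atrophy. The shares of all rows were 20.3%, 4.4% and 28.1% higher and 2.33%, 3.33% and 6.24% lower. Rescaled, 3 endothelial markers were lower after repeated atrophy, beside 12.1% of all rows.

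Genes whose levels ran most like those of a member were named from 6766 rows with a mean of at least 10 CPM, by Pearson r over the 24 limbs, as a description. They share libraries and groups with the member. G0s2 was most like Lrrc39 (r = 0.963), Slc37a4 (0.954) and Ak1 (0.950), and Plin2 most like Hspb8 (0.972), Aif1l (0.965) and Atrn (0.961). Pnpla2 ran most like Sars1 (0.947), Polr1b (0.940) and Trim63 (0.938), Trim63 being a ubiquitin ligase of muscle atrophy. Lipe was most like Acsf2 (0.954), Mlycd (0.952) and Kat14 (0.943), and Abhd5 like Lig3 (0.886), Synrg (0.868) and Prmt7 (0.846). Plin5 had no close partner, its nearest being Crat (0.681), Ucp3 (0.634) and Nudt7 (0.631), of which Crat and Ucp3 act in mitochondrial fatty acid use. For Plin1 and Cidec the nearest were Plxnd1 (0.777) and Fam43a (0.750), at levels of the members too low to read further.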

How the data were processed

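RNA was sequenced from the TA of both limbs of 12 rats as directional poly(A) libraries with paired 59 bp reads. Per the labels and the study's methods, the authors filtered contaminants with Bowtie2 2.2.5, aligned to rn7 with STAR and processed the data in Partek. The annotation and counting step are not given in the sources used here. Each deposited column sums to 1000000, so the authors' values were read as CPM, although the methods name a DESeq2 median of ratios. Depth inferred from the steps of low values was 18.9 to 30.9 (in units of 1000000 reads). The table holds 3 further value columns that match no sample record and were not used.

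From 14271 rows, 28 exact duplicates were dropped. Rows above 0 in at least 3 samples were tested on log2(CPM + 1) in limma 3.58.1 under R 4.3.3, with the prior variance following mean intensity and no animal term, in 18 samples (6 comparisons) or, for sham, 12. The highest-mean row stood for each symbol. Samples labeled as separate animals were replicates, and the numbers in the labels pair the limbs of an animal. Deviations of paired limbs from their group means correlated at -0.188 to 0.841 over 12 animals. Of values worth up to 20 reads, 89.8% to 91.6% lay within 0.1 read of a whole number, so reads were not treated as recovered. The floor of 3 reads covers counting error only. Correlations used 100000 permutations (scipy 1.17.1), except those within arms, which used all 144 arrangements. The limma fit without an animal term was tested on simulated data. The blocked fit and the rescaling were not part of that test.

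The members and gene lists were chosen with earlier results of these data known. Named genes were all members, list genes past the threshold (Mgll, Lipa and Dgat2 passed in an alternative fit and were chosen after their values were seen), and the 3 rows most like each member. Alternatives were pseudocounts of 0.1 and 10, trimmed mean (30% of ratios, 5% of levels) and median of ratios rescaling, a mean of at least 10, no filter, 12 right limbs as control, the animal as a block, limma without the trend, rows summed per symbol, no minimum fold change and leaving out each animal.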

Additional observations from a re-analysis of the deposited data

Results flagged for a closer look

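In the 9 control limbs the lowest G0s2 value, 2.41 CPM, and the highest Pnpla2 value, 1145 CPM, lay far from the others by Dixon's test. Both belong to the right limb of atrophy animal 3. The gaps were 0.660 and 0.547 of the range on the log2 scale, above the 95% critical value for 9 samples, and chance flags about 1 in 20 such groups, of which 8 were tested.

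Treated groups differed from each other in their departure from the same control limbs at 6 points. Between atrophy and recovery these were G0s2 (3.00), Pnpla2 (-1.83) and Plin2 (-1.45), and between recovery and repeated atrophy G0s2 (-5.01), Abhd5 (0.92) and Plin2 (2.58), all as log2 differences that passed in limma. As differences of left-right differences none passed. Their values were then 0.69, -0.26, -0.67, -3.99, 0.84 and 1.97, with adjusted p = 0.871, 0.755, 0.788, 0.0916, 0.230 and 0.139.

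Pnpla2 was lower on the left in all 3 recovery animals and higher on the left in all 3 repeated atrophy animals. The left-right differences of the 2 groups lay 0.50 apart (log2), and with the animal as a block this did not pass (limma adjusted p = 0.204).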

How the results depend on the processing

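The fall of G0s2 and the rise of Plin2 after repeated atrophy kept their direction and passed under all 23 alternatives, with log2 fold changes of -4.78 to -2.37 and 2.80 to 3.28 and adjusted p of at most 0.0108 and 0.00323. The limb numbers pair the 2 limbs of an animal, and with the animal as a block the count of members past the threshold became 0 for atrophy against control, 0 for recovery against atrophy and 0 for repeated atrophy against recovery. Over all 14031 rows the block left 0, 2 and 12 calls in these comparisons. Lipe after repeated atrophy was the 1 member that passed with the block and not without it, and for the members the block altered no other call. For recovery against atrophy the count was 0 under either rescaling and 0 with 12 right limbs as control, and for atrophy against control it was 2 with a mean of at least 10 CPM, where 38.3% of rows were higher and 4.73% lower. Leaving out 1 animal gave counts of 0 to 2 for atrophy against control (0 without atrophy animal 1, 2 without atrophy animal 2 or 3, where 30.7% and 11.9% of rows were higher), 0 to 3 for recovery against atrophy (0 without repeated atrophy animal 2 or recovery animal 1 or 2, and 1 without recovery animal 3), 2 to 4 for repeated atrophy against recovery and 0 to 1 for the sham comparison (1 without sham animal 3, where 0.0582% of rows were higher). The cause of these changes was not tested.

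Values that turned sign belonged to members that had not passed in the comparison concerned. Against control after atrophy these were Plin1 (0.0203) and Cidec (-0.138) with a pseudocount of 0.1. Rescaled by the trimmed mean they were Abhd5 (-0.0950), Lipe (-0.0054), Plin5 (-0.0419) and, after repeated atrophy, Plin5 (-0.125). By the median of ratios they were Abhd5 (-0.0968), Lipe (-0.0073), Plin5 (-0.0437), Cidec (-5e-04) and, after repeated atrophy, Plin5 (-0.129). With 12 right limbs Cidec was -0.130 after atrophy and -0.102 after recovery. With the animal as a block Plin1 was 0.215 after atrophy and -0.129 after recovery, G0s2 -0.261 and Plin5 0.0193 after recovery, and Cidec -0.0035 in sham. In sham the block also turned Abhd5 (-0.313) and Lipe (-0.134), and trimmed mean rescaling turned Abhd5 (-0.183). Among the direct comparisons the block turned, for example, Lipe from recovery to repeated atrophy (-0.256) and Pnpla2 from first to repeated atrophy (0.237). With rows summed Cidec was -0.478 after atrophy. Leaving out 1 animal took the atrophy values of Plin1 from -0.314 to 0.204 and of Cidec from -0.191 to 0.154, and the recovery value of Plin5 from -0.210 to 0.156. Depth limits Plin1 and Cidec, at 2.30 CPM or less.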
